A study of Mus musculus with 32 samples.

Results

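The mitochondrially encoded transcripts are the RNAs read from the mitochondrial chromosome, here every gene whose symbol begins with mt- in the deposited table. They were chosen by symbol alone, and they number 37 of 40392 genes: 13 mRNAs, 2 rRNAs and 22 tRNAs. All 37 passed the filter on low counts that was applied before testing. PolyA RNA of mouse brain tissue, which the series' design text names as basolateral amygdala, was sequenced in 32 libraries, 4 in each of 8 groups. At day 21 and at day 1, the groups were adult mice after social defeat stress, adult control mice, adolescent mice after social defeat stress and adolescent control mice. In social defeat, a dominant mouse attacks the tested one, and this serves as a model of social stress. The design text names mice of 6 and 9 weeks of age and does not tie the ages to the groups. Strain, genotype, sex and the event from which the days are counted are not given in the sources used here. Whether the 4 libraries of a group are 4 different animals is stated nowhere in the labels. The p-values below therefore measure only how these libraries spread, and that spread may be technical. In RNA from whole tissue, fewer cells of a type and less RNA per cell cannot be told apart.

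The mitochondrial genome is a small circle, and both of its strands are transcribed by the RNA polymerase Polrmt, with the factors Tfam and Tfb2m, into long RNAs that span many genes. tRNAs lie between most of the mRNAs and rRNAs, and cutting them out at both ends by the RNase P proteins and Elac2 frees the RNAs on either side. Most mRNAs and both rRNAs then receive short adenine tails from Mtpap, whereas mature tRNAs receive the bases CCA. The mRNAs encode core subunits of the respiratory chain, and the nuclear genome encodes the other subunits, so that both genomes are needed for oxidative phosphorylation, on which neurons rely for most of their ATP. Because the beads carried oligo(dT), the values below are levels within the captured RNA and not within total RNA.

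The genes are packed closely enough that counting has to divide shared bases, and the sequences of mt-Atp8 and of the tRNAs that the results turn on show this. They are given 5′ to 3′ on the gene's own strand from GENCODE release 21, mouse build GRCm38, in which all 37 genes have the same start, end and strand on MT as in the deposited table. Capitals mark bases that a gene shares with a neighbouring mitochondrial gene. mt-Atp8 (MT, 7766 to 7969, forward strand), a subunit of the ATP synthase, shares its last 43 bases with the start of mt-Atp6, the next subunit of that complex.
mt-Atp8: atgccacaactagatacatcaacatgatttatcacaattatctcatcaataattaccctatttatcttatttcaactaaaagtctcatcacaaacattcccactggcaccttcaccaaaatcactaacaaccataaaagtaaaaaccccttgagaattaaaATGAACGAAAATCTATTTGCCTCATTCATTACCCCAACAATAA
The 2 tRNAs with the highest summed counts lie on the reverse strand, mt-Te (glutamate, 14071 to 14139) beside mt-Nd6 and mt-Ts1 (serine, 6870 to 6938) across the end of mt-Co1.
mt-Te: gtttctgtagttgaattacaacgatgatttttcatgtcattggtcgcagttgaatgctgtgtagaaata
mt-Ts1: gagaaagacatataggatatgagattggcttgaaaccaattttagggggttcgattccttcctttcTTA
The tRNAs that passed a test between groups are mt-Td (aspartate, 6942 to 7011), mt-Tf (phenylalanine, 1 to 68), mt-Ti (isoleucine, 3706 to 3774) and mt-Tl1 (leucine, 2676 to 2750) on the forward strand, and mt-Ty (tyrosine, 5260 to 5326) and mt-Tp (proline, 15356 to 15422) on the reverse strand.
mt-Td: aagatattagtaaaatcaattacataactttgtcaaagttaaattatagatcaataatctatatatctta
mt-Tf: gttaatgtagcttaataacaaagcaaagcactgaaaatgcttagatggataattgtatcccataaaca
mt-Ti: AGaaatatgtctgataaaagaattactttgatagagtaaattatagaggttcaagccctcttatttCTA
mt-Tl1: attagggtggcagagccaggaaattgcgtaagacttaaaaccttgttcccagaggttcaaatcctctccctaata
mt-Ty: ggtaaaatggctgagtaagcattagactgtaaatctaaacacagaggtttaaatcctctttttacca
mt-Tp: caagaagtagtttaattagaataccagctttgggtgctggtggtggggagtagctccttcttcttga
Neighbours that were high in the same libraries are mt-Tq (glutamine, 3772 to 3842, reverse strand) and mt-Tm (methionine, 3845 to 3913), and the run mt-Th (histidine, 11546 to 11612), mt-Ts2 (serine, 11613 to 11671) and mt-Tl2 (leucine, 11671 to 11741) on the forward strand.
mt-Tq: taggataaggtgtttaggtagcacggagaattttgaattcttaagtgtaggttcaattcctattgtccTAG
mt-Tm: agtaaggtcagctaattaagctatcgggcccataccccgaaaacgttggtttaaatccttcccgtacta
mt-Th: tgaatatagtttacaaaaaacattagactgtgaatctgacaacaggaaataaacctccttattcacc
mt-Ts2: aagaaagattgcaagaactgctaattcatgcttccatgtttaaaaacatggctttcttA
mt-Tl2: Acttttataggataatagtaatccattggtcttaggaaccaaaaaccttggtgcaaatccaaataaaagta

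Part of the mitochondrial sequence is also present in the nuclear genome, and the deposited table counts it under other gene names. On chromosome 1 of GRCm38, 7 gene models between 24611535 and 24616197 on the reverse strand match mitochondrial mRNAs over their aligned length with at most 1 mismatch. Gm28661 held a median of 99.2% of the counts of mt-Co2, Gm28437 held 99.6% of those of mt-Co3 and Gm10222 held 99.7% of those of mt-Nd4l. Gm10925, also named Atp6-ps, held 105% of the counts of mt-Atp6. Gm28439 matches the first 876 bases of mt-Nd4 and held 36.5% of its counts, and Gm29216 matches bases 1063 to 1545 of mt-Co1 and held 8.55%. Together the 7 models held a median of 1.52% of a library's counts (range 1.17 to 1.73%). The sources used here do not give how reads that match both places were counted, so the levels of mt-Nd3, mt-Nd4, mt-Nd4l, mt-Co1, mt-Co2, mt-Co3 and mt-Atp6 are uncertain to that extent. Only annotated transcripts were searched for copies, so sequence between these gene models was not covered. On the mitochondrial map mt-Ts1, mt-Td, mt-Tk, mt-Atp8, mt-Tg and mt-Tr lie between the matched mRNAs. Whether they too have copies there was not tested, so their levels may be uncertain in the same way. The copy of mt-Nd3, Gm28438, differs from it at 1 base, T3C counted from the 5′ end of the 33 bases below, shown in capitals, with mt-Nd3 at MT 9459 to 9491 and Gm28438 at chr1:24613087-24613119 on the reverse strand of GRCm38.
mt-Nd3: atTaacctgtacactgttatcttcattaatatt
Gm28438: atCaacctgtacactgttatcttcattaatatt
Gm28438 held a median of 91.1% of the counts of mt-Nd3. Older copies on chromosomes 2 and 13, with 95.2 to 97.6% identity, held at most 0.24% of their genes' counts in any library.

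Library totals ranged from 53885799 to 82208892 counts. The 10 markers of basolateral amygdala excitatory neurons, among them Slc17a7, summed to 3537 to 4621 CPM (counts relative to library size after scaling) in the 32 libraries and all passed the filter, as did all 10 markers of striatum and central amygdala, at 1931 to 3988 CPM. The 12 choroid plexus markers summed to 143 to 3929 CPM, and their gene Ttr was above 100 CPM in 11 libraries, including all 4 of defeated adolescents at day 1. The 18S rRNA gene Rn18s-rs5 was above 2000 CPM in 7 libraries: 2 of defeated adults at day 21, 1 of adult controls at day 21, 1 of adult controls at day 1, 1 of defeated adolescents at day 21 and 2 of adolescent controls at day 21.

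Mitochondrial mRNAs made up a median of 6.05% (range 4.63 to 6.91%) of a library's counts, mitochondrial rRNAs 0.490% (range 0.340 to 0.702%) and mitochondrial tRNAs 0.0224% (range 0.0174 to 0.0285%). All 37 genes together took 6.60% (range 5.08 to 7.49%). Of the mitochondrial counts summed over libraries, the mRNAs held 92.1%, the rRNAs 7.57% and the tRNAs 0.337%. mt-Co1, the catalytic subunit of cytochrome c oxidase, held a median of 30.2% of the mitochondrial counts, with 28.6% in the lowest library and 31.7% in the highest. mt-Cytb, the cytochrome b subunit of complex III, held 11.4%, and mt-Nd4 and mt-Nd1, both membrane subunits of complex I, held 8.19% and 7.91%. mt-Rnr1 ran from 2.15% to 4.10% and mt-Rnr2 from 3.19% to 5.94%, which are wider ranges for their size than that of mt-Co1.

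**Figure D1:**
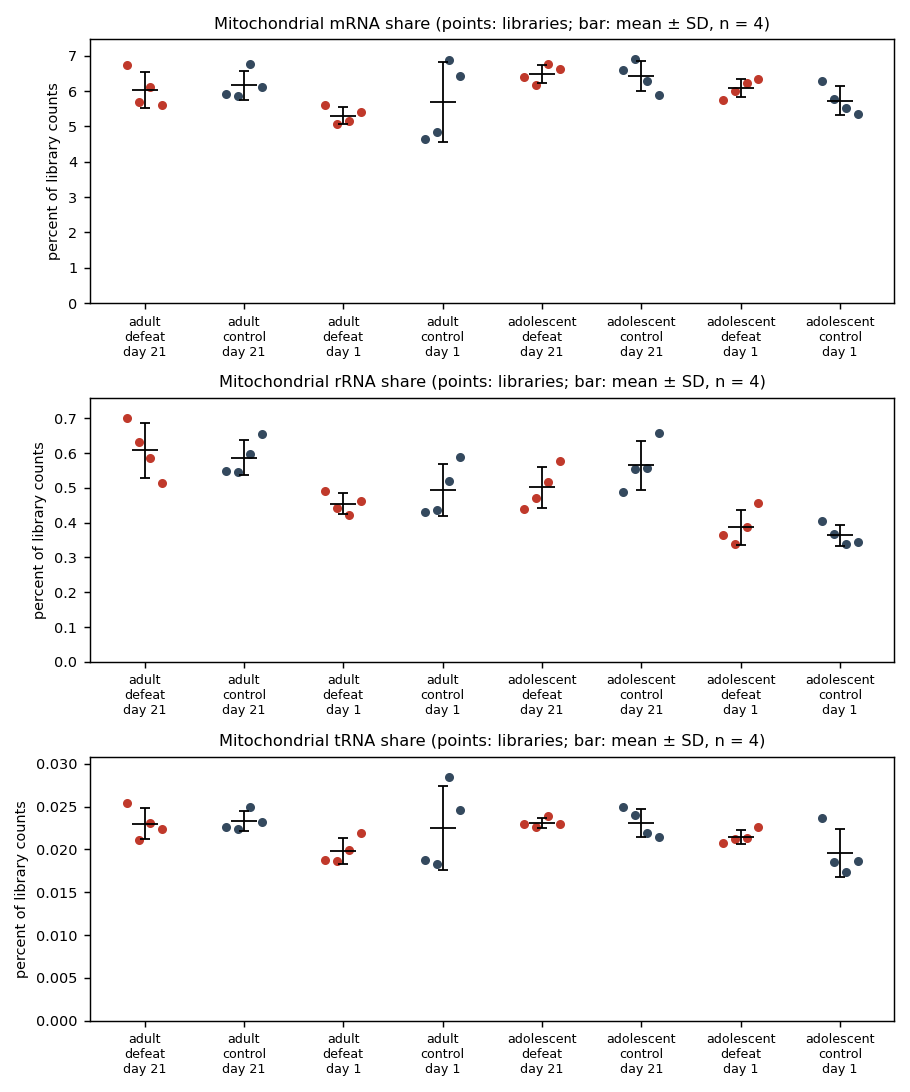
Percent of a library's counts (vertical axes, from 0) taken by mitochondrial mRNAs, rRNAs and tRNAs in the 8 groups; points are libraries, and bars are the mean ± SD (n = 4). The mRNA share of adult controls at day 1 spreads from 4.63% to 6.89%, and the rRNA share is below 0.46% in all 8 adolescent libraries at day 1. Other groups also reach below 0.46%, with a lowest rRNA share of 0.421% in defeated adults and 0.432% in adult controls at day 1. In defeated adolescents at day 21 the lowest is 0.441%.

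Levels of different genes were compared per length, as median FPKM (the deposited values, scaled for gene length and depth) over the 32 libraries. mt-Co1 stood first at 11767 FPKM and lay above mt-Cytb, the next at 6013 FPKM, in all 32 libraries with no overlap of their ranges. mt-Nd1 (5113 FPKM), mt-Atp6 (5097 FPKM), mt-Atp8 (4806 FPKM) and mt-Co2 (4619 FPKM) followed with overlapping ranges, and mt-Nd1 exceeded mt-Atp6 in only 8 of 32 libraries although its median was higher. mt-Co3 had 4099 FPKM, mt-Nd4 3601 FPKM, mt-Nd2 3550.0 FPKM and mt-Nd5 2468 FPKM. mt-Rnr1, the small-subunit rRNA, had 2021 FPKM and mt-Rnr2, the large-subunit rRNA, 1652 FPKM, and both overlapped mt-Nd4l at 2005 FPKM and mt-Nd6 at 1933 FPKM. mt-Nd3 was the lowest mRNA at 559 FPKM, below mt-Rnr2 in every library with no overlap. Among tRNAs, mt-Te (668 FPKM) and mt-Ts1 (628 FPKM) were above mt-Tl1 (385 FPKM) and mt-Tm (252 FPKM), with a gap without overlap between mt-Ts1 and mt-Tl1. A further gap without overlap lay between mt-Tm and mt-Ty (121 FPKM), and the lowest tRNA was mt-Tv, for valine, at 10.1 FPKM. The tRNA genes are shorter than most library inserts. Reads of a mature tRNA therefore cannot be told apart from those of precursors or adjoining RNAs that span its gene. Values of tRNA genes here and below are counts over the gene and not levels of mature tRNA.

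The classes differed in how much they varied between libraries. The coefficient of variation of CPM over the 32 libraries was lowest for mt-Co3 among the mRNAs, at 8.72%, and highest for mt-Nd6, at 14.999%. It was 20.4% for mt-Rnr1 and 20.1% for mt-Rnr2. Among tRNAs it ran from 11.4% for mt-Ts1 to 45.7% for mt-Th, a gene with few counts. Over the 32 libraries, the mRNA share rose and fell with the tRNA share (Pearson r = 0.842, permutation p = 1e-05, the smallest that 100000 permutations can give, Benjamini-Hochberg adjusted p = 3e-05 over 6 relations; Spearman rho = 0.874, adjusted p = 6e-05). That relation was positive within all 8 groups and r was 0.858 without the 2 libraries farthest from the median mRNA share. The mRNA and rRNA shares were less closely related (r = 0.437, permutation p = 0.0131, adjusted p = 0.0262; rho = 0.468, adjusted p = 0.0139; r = 0.423 without the 2 farthest libraries), and the relation was positive in 7 of 8 groups. Library total (r = -0.096, permutation p = 0.600; rho = -0.130) and log2 Ttr (r = -0.281, permutation p = 0.120; rho = -0.313) did not pass a test against the mRNA share. Against log2 Rn18s-rs5 the mRNA share did not pass by Pearson's r (r = 0.340, permutation p = 0.0572, adjusted p = 0.0858) and passed by Spearman's rho (rho = 0.454, adjusted p = 0.0139). It had r = 0.487 without the 2 libraries farthest from the median and was positive in 6 of 8 groups, while the correlation of the deviations from group means was 0.105.

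After social defeat, none of the 37 genes passed an adjusted p of 0.05 in any of the 4 comparisons with controls of the same age class and day (edgeR's quasi-likelihood test, two-sided, adjusted over 23778 genes). At day 21, 0.00841% of all genes tested passed in adults, and 0.0126% did so in adolescents. At day 1, 0.353% passed in adults and 0.0547% in adolescents. At an unadjusted p under 0.05, 7 of 37 members were counted in each age class at day 1. At day 21, 3 were counted in adults and 0 in adolescents. Of all 23778 genes, 2261 were so counted in adults and 1772 in adolescents at day 1, and 1537 and 1361 at day 21. DESeq2 counted 1 member, mt-Tl1, in adults at day 1 and 0 in the other 3 comparisons. In adults at day 1, 35 of 37 fitted changes were below 0 and the median log2 change was -0.14, beside -0.0040 over all genes. In adolescents at day 1, 34 of 37 were above 0 and the median was 0.10, beside -0.0031 over all genes. At day 21 the medians were -0.011 in adults and 0.046 in adolescents. No cell type marker passed for defeat at day 1. In adolescents at day 1, all 12 choroid plexus markers (median log2 change 1.69), all 8 endothelial markers (median 0.32) and all 5 red cell markers (median 0.80) had fitted changes above 0. In adults at day 1, all 12 choroid plexus markers (median 0.57), 6 of 8 endothelial markers (median 0.13) and all 5 red cell markers (median 0.38) did so. Their part in the members' changes was not tested. The members share their transcripts and their libraries, so they are not independent of each other.

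**Figure D2:**
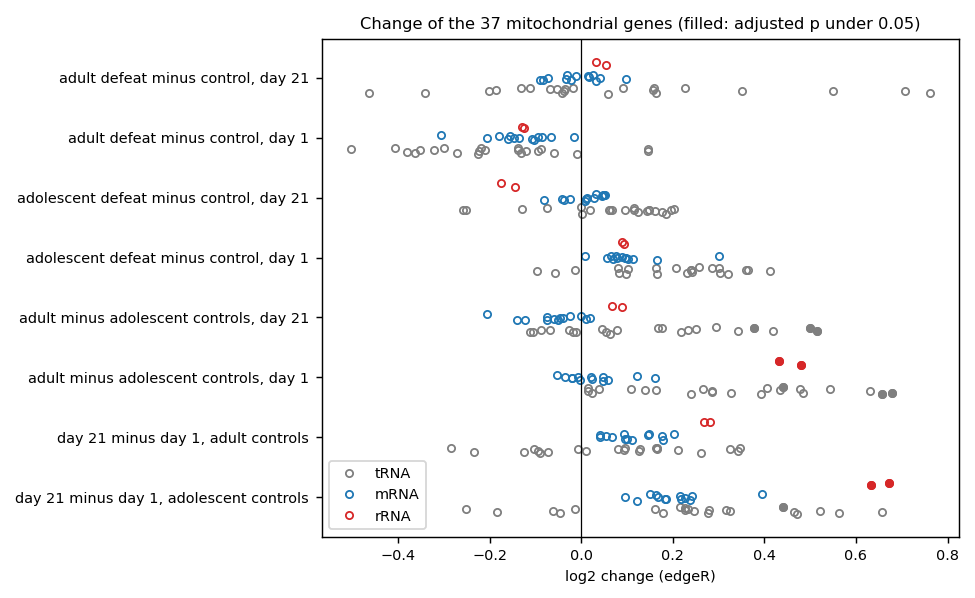
Log2 change of each of the 37 mitochondrial genes (horizontal axis, edgeR) in 8 comparisons, defeat minus control, adult minus adolescent or day 21 minus day 1; filled points have an adjusted p under 0.05. No point is filled in the 4 defeat comparisons, and both rRNAs are filled in adult minus adolescent controls at day 1 and in day 21 minus day 1 of adolescent controls.

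The mRNAs show the size of these differences against their spread. mt-Co1 had 18770.0, 16746, 17214 and 17693 CPM in the 4 libraries of defeated adults at day 1, against 15102, 16044, 22217 and 20387 CPM in adult controls. The controls fell into a low and a high pair, and the defeated libraries lay between the pairs. mt-Co1 averaged 17606 ± 867 CPM in defeated adults and 18437 ± 3413 CPM in adult controls (SD, n = 4 each), a log2 change of -0.067 ± 0.085 (SE, edgeR, adjusted p = 0.896). In adolescents at day 1 it had 18609, 19544, 20672 and 20426 CPM after defeat, against 19948, 18100.0, 18488 and 17556 CPM in controls, with a log2 change of 0.10 ± 0.085 (SE, edgeR, adjusted p = 0.902). Those groups overlapped. mt-Nd1 had 4494, 4159, 4198 and 4567 CPM in defeated adults at day 1, against 3871, 4000.4, 5899 and 5638 CPM in adult controls, again inside the control range, with a log2 change of -0.16 ± 0.10 (SE, edgeR, adjusted p = 0.68). mt-Atp6 had a log2 change of -0.095 (adjusted p = 0.855) and mt-Cytb one of -0.10 (adjusted p = 0.83) in the same comparison by edgeR. At day 21, mt-Co1 had 22469, 18426, 19416 and 18247 CPM in defeated adults, against 19617, 19973, 23106 and 20619 CPM in adult controls. It had 21115, 19612, 22013 and 22135 CPM in defeated adolescents at day 21, against 21037, 21977, 20373 and 18824 CPM in adolescent controls. Groups overlapped in both cases, and the log2 changes were -0.085 (edgeR adjusted p = 0.941) in adults and 0.046 (edgeR adjusted p = 0.997) in adolescents.

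As a class, the mRNAs took 5.60, 5.07, 5.15 and 5.42% of counts in defeated adults at day 1, against 4.63, 4.85, 6.89 and 6.43% in adult controls. The means were 5.31 ± 0.245% in defeated adults and 5.70 ± 1.13% in adult controls (SD, n = 4 each), a difference of -0.39 percentage points (two-sided exact permutation test over libraries, p = 0.486, adjusted p = 0.815 over 12 comparisons). With 4 libraries against 4 the smallest p that this test can give is 0.0286. In adolescents at day 1 the means were 6.08 ± 0.258% in defeated adolescents and 5.74 ± 0.408% in adolescent controls (SD, n = 4 each), with exact permutation p = 0.229, adjusted p = 0.815. The effect of defeat on the mRNA share was not separated between adults and adolescents at day 1 by the test (difference of -0.74 percentage points, exact permutation within age classes, p = 0.255, adjusted p = 0.815). For the rRNA share the adult means at day 1 were 0.454 ± 0.0303% in defeated adults and 0.494 ± 0.0743% in adult controls (SD, n = 4 each), with exact permutation p = 0.4, adjusted p = 0.533. Over the 12 comparisons the smallest adjusted p was 0.686 for the mRNA share and 0.171 for the rRNA share by the exact permutation test.

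The tRNA with the smallest p after defeat was mt-Tl1, which reads leucine codons and lies between mt-Rnr2 and mt-Nd1 in the precursor. It had 21.5, 23.5, 20.8 and 23.8 CPM in defeated adults at day 1, against 27.5, 24.02, 38.5 and 37.1 CPM in adult controls. The groups did not overlap. mt-Tl1 averaged 22.4 ± 1.46 CPM in defeated adults and 31.8 ± 7.15 CPM in adult controls (SD, n = 4 each), a log2 change of -0.50 ± 0.14 (SE, edgeR, adjusted p = 0.125). In adolescents at day 1 it had 32.1, 26.5, 31.5 and 36.98 CPM after defeat, against 32.8, 26.2, 24.6 and 24.1 CPM in controls, with overlap. Its defeat effect differed between adults and adolescents by -0.74 on the log2 scale at an unadjusted p of 0.000643, which is an edgeR adjusted p of 0.255. mt-Te had 37.8, 39.2, 38.1 and 43.5 CPM in defeated adults at day 1, against 42.5, 39.9, 62.0 and 59.6 CPM in adult controls, with overlap and a log2 change of -0.36 ± 0.12 (SE, edgeR, adjusted p = 0.256). mt-Ts1 had 45.5, 39.3, 40.2 and 41.8 CPM in defeated adults at day 1, against 37.2, 38.0, 57.7 and 48.5 CPM in adult controls, with overlap and a log2 change of -0.12 ± 0.10 (SE, edgeR, adjusted p = 0.788). At day 21, mt-Ti averaged 3.82 ± 0.301 CPM in defeated adults and 5.28 ± 0.404 CPM in adult controls (SD, n = 4 each) without overlap, a log2 change of -0.46 ± 0.15 (SE, edgeR, adjusted p = 0.489).

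No member passed in the tests of whether the defeat effect differed between adults and adolescents or between days. Of all genes, 0.0168% passed for adults against adolescents at day 1, 0.0252% for adults against adolescents at day 21, 0.00421% for day 21 against day 1 in adolescents and 0.622% for day 21 against day 1 in adults. At an unadjusted p under 0.05, edgeR counted 11 of 37 members for adults against adolescents at day 1 and 0 at day 21. It counted 0 for the days in adolescents and 6 for the days in adults. The counts over all 23778 genes in the same order were 1574, 1732, 1181 and 2509. DESeq2 counted 1 member, mt-Tl1, for the days in adults and 0 in the other 3 tests. Without library 2 of adult controls at day 1, edgeR counted 1 member for the days in adults. For adults against adolescents at day 1, 35 of 37 members were below 0, with a median of -0.30 beside -0.0025 over all genes.

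mt-Nd6 is a subunit of complex I and the only mitochondrial mRNA on the reverse strand, so it comes from the other precursor than the other 12. In human cells its mRNA lacks the adenine tail of the others. It had 842, 797, 794 and 896 CPM in defeated adults at day 1, against 812, 841, 1256 and 1209.9 CPM in adult controls. Defeated adults lay in a narrow band around the lower pair of controls, with a log2 change of -0.31 ± 0.11 (SE, edgeR, adjusted p = 0.271). Its log2 ratio to the summed counts of the other 12 mRNAs was -6.02, -5.94, -5.99 and -5.90 in defeated adults at day 1, against -5.78, -5.83, -5.76 and -5.70 in adult controls. These groups did not overlap. The means were -5.96 ± 0.054 in defeated adults and -5.77 ± 0.051 in adult controls (SD, n = 4 each), a difference of -0.20 (two-sided exact permutation test, p = 0.0286, adjusted p = 0.0571 over 12 comparisons). In adolescents at day 1 the log2 ratio was -5.81, -5.86, -5.77 and -5.79 after defeat, against -5.84, -5.83, -5.99 and -5.88 in controls. Here the groups overlapped, and the difference was 0.078 (exact permutation p = 0.0857, adjusted p = 0.103). Control groups also differed in this ratio without overlap: adult minus adolescent controls gave 0.12 at day 1 and -0.17 at day 21, and day 21 minus day 1 gave 0.22 in adolescent controls, each with the same exact permutation p = 0.0286 and adjusted p = 0.0571 as the defeat difference in adults at day 1. The defeat effect on the ratio was lower in adults than in adolescents at day 1 (difference of effects -0.27, exact permutation within age classes, p = 0.00122, adjusted p = 0.00735).

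At day 21 the log2 ratio of mt-Nd6 to the other mRNAs was -5.78, -5.75, -5.78 and -5.74 in defeated adults, against -5.87, -5.82, -5.87 and -5.78 in adult controls, with overlap and a difference of 0.069 (exact permutation p = 0.0857, adjusted p = 0.103). The defeat effect in adults was higher at day 21 than at day 1 by 0.27 (exact permutation within days, p = 0.00122, adjusted p = 0.00735). In adolescents it differed between days by -0.13 (exact permutation p = 0.0637, adjusted p = 0.0955). At day 21 it differed between adults and adolescents by 0.12 (exact permutation p = 0.0469, adjusted p = 0.0805). Without library 4 of adult controls at day 21, the exact permutation adjusted p was 0.0429 for the defeat difference in adults at day 21 (0.087) and for the difference of effects between age classes at day 21 (0.14), and without library 3 of defeated adolescents at day 21 it was 0.0429 for that difference of effects (0.15) and for the difference between days in adolescents (-0.16). The 2 differences of effects that passed share the adult groups of day 1, so they are not independent of each other. Without the 7 libraries of high Rn18s-rs5 their values were -0.25 and 0.26 (exact permutation, adjusted p = 0.0171 for both). Without the 11 libraries of high Ttr, the second was 0.25 with an exact permutation adjusted p of 0.0771, so the call was lost; the first could not be computed because all defeated adolescents of day 1 are among them. The sources used here do not give whether counting used the strand of the reads, and without strand, reads of the opposite precursor over mt-Nd6 cannot be told apart from mt-Nd6. The same limit holds for the tRNAs on the reverse strand, among them mt-Te, mt-Ts1, mt-Tq, mt-Ty and mt-Tp.

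**Figure D3:**
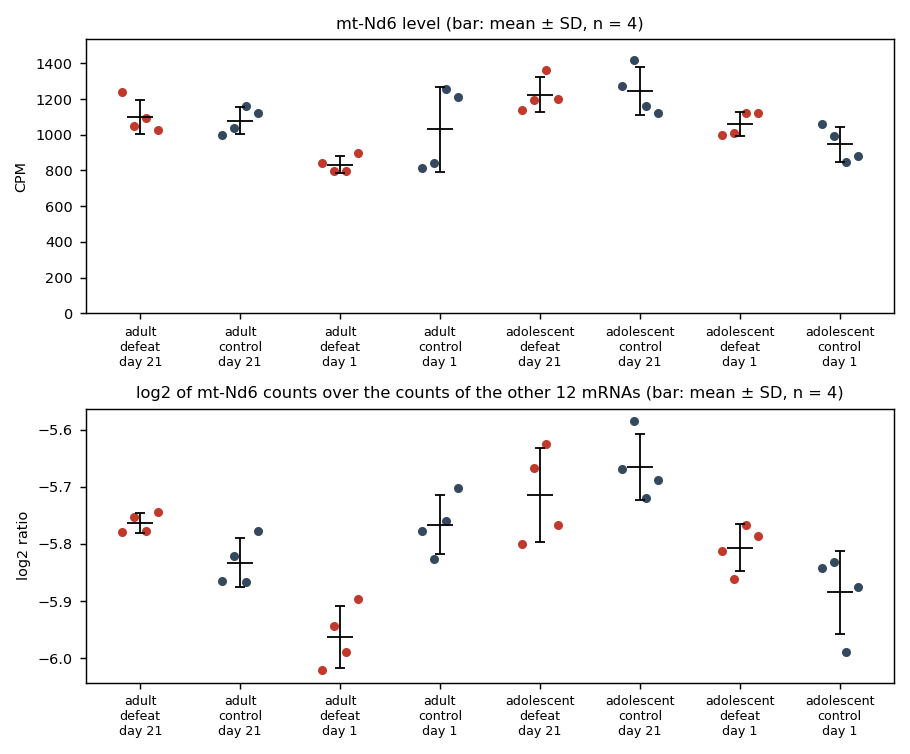
Level of mt-Nd6 in CPM (upper vertical axis, from 0) and log2 ratio of its counts to the summed counts of the other 12 mitochondrial mRNAs (lower vertical axis) in the 8 groups; points are libraries and bars the mean ± SD (n = 4). The ratio lies between -6.02 and -5.90 in defeated adults at day 1, and between -5.83 and -5.70 in adult controls of that day.

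Among controls at day 1, 5 of 37 members were higher in adults than in adolescents and 0 were lower (edgeR, adjusted p under 0.05), where 4.38% of all genes passed in either direction. The 5 were both rRNAs and the tRNAs mt-Td, mt-Tf and mt-Ty, and none of the 13 mRNAs passed (median log2 change of the mRNAs 0.021, of the tRNAs 0.31 and of all genes 0.00020). mt-Rnr1 had 1762, 1851, 2179.5 and 2458 CPM in adult controls, against 1644, 1513, 1371 and 1391 CPM in adolescent controls. Every adult library lay above every adolescent one. mt-Rnr1 averaged 2063 ± 319 CPM in adult controls and 1479.7 ± 126 CPM in adolescent controls (SD, n = 4 each), a log2 change of 0.48 ± 0.11 (SE, edgeR, adjusted p = 0.00769). mt-Rnr2 had 2463, 2532, 3042 and 3415 CPM in adult controls, against 2351, 2157, 1994 and 1987 CPM in adolescent controls, without overlap and with a log2 change of 0.43 ± 0.11 (SE, edgeR, adjusted p = 0.0262). The same order held for mt-Td, which had 1.47, 1.61, 2.05 and 1.99 CPM in adult controls, against 1.25, 1.23, 1.02 and 0.941 CPM in adolescent controls, with a log2 change of 0.68 ± 0.14 (SE, edgeR, adjusted p = 0.00407). mt-Ty had 8.22, 7.98, 10.1 and 10.5 CPM in adult controls, against 7.57, 7.503, 6.13 and 5.90 CPM in adolescent controls, without overlap and with a log2 change of 0.44 ± 0.11 (SE, edgeR, adjusted p = 0.0187). mt-Tf, the first gene of the precursor that carries the rRNAs, had 1.079, 1.32, 1.83 and 1.86 CPM in adult controls, against 1.13, 1.01, 0.881 and 0.837 CPM in adolescent controls, where 1 adult library fell inside the adolescent range, with a log2 change of 0.66 ± 0.16 (SE, edgeR, adjusted p = 0.0138).

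The call of mt-Rnr1 and that of mt-Td held when any 1 of the 8 libraries was left out. The count of 5 became 2 without adult control library 3 or without adolescent control library 3, and 3 without adult control library 4 or without adolescent control library 4. Cell type markers that passed in the same comparison included 3 of 8 endothelial genes, which were lower in adult controls (median log2 change of the 8 genes -0.38), and their summed level was 106 to 167 CPM in adult controls and 159 to 191 CPM in adolescent controls. By edgeR, 1 of 10 basolateral amygdala excitatory markers was lower, Cdh13, at a log2 change of -0.26 (adjusted p = 0.0126), 1 of 8 interneuron markers was higher, Lhx6, at 0.29 (adjusted p = 0.0159), and 1 of 8 microglial markers was higher, Tmem119, at 0.48 (adjusted p = 0.0141). The 12 choroid plexus markers were all above 0 (median 0.94) and none passed. Rn18s-rs5 had 559.9, 1398, 724 and 4239.9 CPM in adult controls, against 701, 661, 761 and 576 CPM in adolescent controls. With log2 Rn18s-rs5 as a covariate, 5 members passed and the log2 change of mt-Rnr1 was 0.40 (adjusted p = 0.0108) and that of mt-Rnr2 0.32 (adjusted p = 0.0215) by edgeR. Without the libraries of Ttr above 100 CPM, 1 in each of these groups, 1 member passed, mt-Rnr1. The part of these cell types in the result was not tested.

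At day 21, 3 of 37 members were higher in adult than in adolescent controls and 0 were lower. That is near the 6.06% of all genes that passed there in either direction. All 3 were tRNAs. mt-Td had 2.44, 2.23, 2.31 and 2.03 CPM in adult controls, against 1.65, 1.73, 1.54 and 1.46 CPM in adolescent controls, without overlap and with a log2 change of 0.50 ± 0.14 (SE, edgeR, adjusted p = 0.0267). mt-Ti had 5.19, 5.12, 4.93 and 5.86 CPM in adult controls, against 3.11, 3.53, 3.62 and 4.50 CPM in adolescent controls, without overlap and with a log2 change of 0.52 ± 0.15 (SE, edgeR, adjusted p = 0.0369). mt-Ty had 10.1, 10.7, 11.9 and 11.4 CPM in adult controls, against 8.86, 8.89, 8.77 and 7.40 CPM in adolescent controls, again without overlap and with a log2 change of 0.38 ± 0.11 (SE, edgeR, adjusted p = 0.0376). mt-Td and mt-Ty thus passed in the same direction at both days, in different libraries. The count of 3 was not stable: leaving out any 1 of the 8 libraries gave 0 or 1. mt-Rnr1 differed by 0.089 (edgeR adjusted p = 0.737) and mt-Rnr2 by 0.067 (edgeR adjusted p = 0.83) between these control groups. Cell type markers also passed in this comparison by edgeR. Of the astrocyte markers, 2 of 8 were lower in adult controls, Sox9 at a log2 change of -0.56 (adjusted p = 6.66e-05) and Aldh1l1 at -0.32 (adjusted p = 0.0103). Higher were 1 of 10 excitatory markers, Neurod2, at 0.53 (adjusted p = 0.0369), 1 of 8 endothelial, Flt1, at 0.73 (adjusted p = 0.0134), and 1 of 8 interneuron, Lhx6, at 0.25 (adjusted p = 0.036). The excitatory markers summed to 3782 to 4341 CPM in adult controls and 3771 to 4154 CPM in adolescent controls. Interneuron markers summed to 1188 to 1291 CPM and 1211 to 1340 CPM, and endothelial markers to 204 to 222 CPM and 158 to 211 CPM. Astrocyte markers summed to 3440 to 3876 CPM and 3710 to 4162 CPM in the same order. All 4 sums overlapped between the groups. The part of these cell types in the result and the difference between the age effect at day 1 and at day 21 were not tested.

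In adolescent controls, 3 of 37 members were higher at day 21 than at day 1 and 0 were lower, where 0.925% of all genes passed. mt-Rnr1 had 2071, 2414, 2239 and 2704 CPM at day 21, against 1644, 1513, 1371 and 1391 CPM at day 1. mt-Rnr1 averaged 2357 ± 270.2 CPM in adolescent controls at day 21 and 1479.7 ± 126 CPM in adolescent controls at day 1 (SD, n = 4 each), a log2 change of 0.67 ± 0.11 (SE, edgeR, adjusted p = 0.00239). All 4 libraries of day 21 lay above all 4 of day 1, and the same was seen for mt-Rnr2, which had 2792, 3166, 3304 and 3897 CPM at day 21, against 2351, 2157, 1994 and 1987 CPM at day 1, with a log2 change of 0.63 ± 0.12 (SE, edgeR, adjusted p = 0.00469). Both rRNA calls held when any 1 of these 8 libraries was left out. mt-Tp, a reverse-strand tRNA at the far end of the gene map, had 9.98, 9.69, 8.50 and 8.86 CPM at day 21, against 7.53, 7.16, 6.09 and 6.51 CPM at day 1, with a log2 change of 0.44 ± 0.11 (SE, edgeR, adjusted p = 0.0394); its call was lost without any 1 of 6 of the 8 libraries. All 13 mRNAs had fitted changes above 0, with a median log2 change of 0.19 beside 0.00070 over all genes, and the smallest adjusted p among them was 0.0627 by edgeR. The adolescent controls of day 1 are the low group in this comparison and in that with adult controls of day 1, so the rRNA results of both rest in part on the same 4 libraries.

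Values that moved with the rRNAs between these days included those of the nuclear 18S rRNA and of several cell type markers. Rn18s-rs5 had 1034, 883, 4143 and 8537 CPM at day 21, against 701, 661, 761 and 576 CPM at day 1, in adolescent controls. Every library of day 21 was above every library of day 1. Oligodendrocyte markers were lower at day 21 for 4 of 8 genes (median log2 change of the 8 genes -0.70), with a summed level of 5866 to 6905 CPM at day 21 and 7921 to 11850.0 CPM at day 1. Of 10 basolateral amygdala excitatory markers, 2 were lower at day 21 by edgeR, Cdh13 at a log2 change of -0.30 (adjusted p = 0.0139) and Tbr1 at -0.54 (adjusted p = 0.0189), with a median of -0.20 over the 10. The 10 markers of striatum and central amygdala were all above 0 (median 0.23) and the 12 choroid plexus markers all below 0 (median -0.83), and none of these passed. With log2 Rn18s-rs5 as a covariate, the log2 change of mt-Rnr1 was 0.52 (adjusted p = 0.0194) and that of mt-Rnr2 0.41 (adjusted p = 0.0334) by edgeR. Without the libraries of Rn18s-rs5 above 2000 CPM, which leaves 2 libraries at day 21, they were 0.61 (adjusted p = 0.0278) and 0.50 (adjusted p = 0.0426). Over all 32 libraries, the mitochondrial rRNA share was higher where Rn18s-rs5 was higher (Pearson r = 0.725 with log2 CPM, permutation p = 1e-05, the smallest that 100000 permutations can give, adjusted p = 3e-05; Spearman rho = 0.637, adjusted p = 0.00036; r = 0.664 without the 2 libraries farthest from the median). The correlation of the deviations from group means was 0.729, and it was positive within 7 of 8 groups. The part of these cell types in the rRNA results was not tested.

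**Figure D4:**
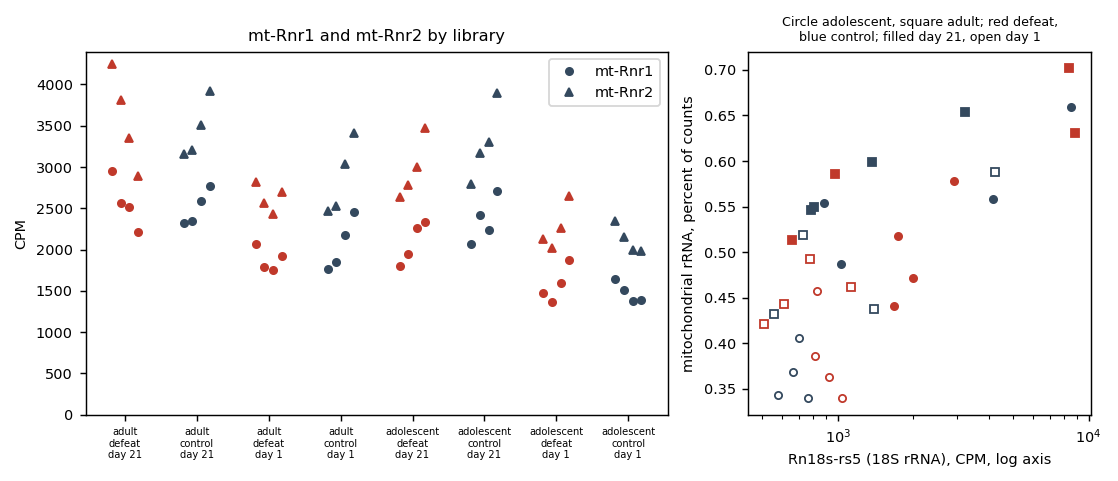
Left, CPM (vertical axis, from 0) of mt-Rnr1 (circles) and mt-Rnr2 (triangles) in each library of the 8 groups, red after defeat and blue in controls; right, the percent of counts from both mitochondrial rRNAs against Rn18s-rs5 in CPM (horizontal log axis) in the 32 libraries. Of the adolescent libraries of day 1 (open circles), 7 of 8 lie lowest, from 0.340% to 0.405%, and the other is at 0.457%; the library with the highest share, 0.702%, is one of defeated adults at day 21.

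In adult controls, no member passed between day 21 and day 1, where 0.858% of all genes passed. At an unadjusted p under 0.05, edgeR counted 8 of 37, beside 3068 of all 23778 genes, and DESeq2 counted 0 at its adjusted threshold. mt-Rnr1 had 2320.0, 2348, 2585 and 2772 CPM at day 21, against 1762, 1851, 2179.5 and 2458 CPM at day 1, with overlap and a log2 change of 0.28 ± 0.11 (SE, edgeR, adjusted p = 0.231). mt-Rnr2 had 3153, 3201, 3514 and 3918 CPM at day 21, against 2463, 2532, 3042 and 3415 CPM at day 1, with a log2 change of 0.27 ± 0.11 (SE, edgeR, adjusted p = 0.302). Endothelial markers were higher at day 21 for 6 of 8 genes in this comparison, with a summed level of 204 to 222 CPM at day 21 and 106 to 167 CPM at day 1.

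The 4 comparisons between defeated groups were added after values had been seen. Between adult and adolescent mice after defeat at day 1, 7.32% of all genes passed. Of the 37 members, 2 were lower in adults, mt-Tl1 and mt-Nd6, with 0 higher, which is no larger a share than that of all genes. mt-Tl1 had 21.5, 23.5, 20.8 and 23.8 CPM in defeated adults, against 32.1, 26.5, 31.5 and 36.98 CPM in defeated adolescents. The groups did not overlap, with a log2 change of -0.51 ± 0.14 (SE, edgeR, adjusted p = 0.0219). mt-Nd6 had 842, 797, 794 and 896 CPM in defeated adults, against 999, 1008, 1119 and 1119.9 CPM in defeated adolescents, also without overlap and with a log2 change of -0.35 ± 0.11 (SE, edgeR, adjusted p = 0.0383). All 13 mRNAs had fitted changes below 0 (median log2 change -0.19), and mt-Co1 had 18770.0, 16746, 17214 and 17693 CPM in defeated adults, against 18609, 19544, 20672 and 20426 CPM in defeated adolescents (edgeR adjusted p = 0.246). The mRNA share was 5.31 ± 0.245% in defeated adults and 6.08 ± 0.258% in defeated adolescents (SD, n = 4 each) without overlap (exact permutation p = 0.0286, adjusted p = 0.0571 over 4 comparisons). The count of 2 became 0 without library 1 of defeated adolescents, or without library 1 or library 3 of defeated adults, and 1 without any of the other 3 libraries of defeated adolescents or library 2 of defeated adults. Endothelial markers were lower in defeated adults for 4 of 8 genes, with 128 to 158 CPM in defeated adults and 195 to 237 CPM in defeated adolescents, and choroid plexus markers summed to 242 to 3799 CPM in defeated adults and 1548 to 2092 CPM in defeated adolescents. By edgeR, 2 of 8 astrocyte markers were higher in defeated adults, Sox9 at a log2 change of 0.41 (adjusted p = 0.00126) and Aqp4 at 0.30 (adjusted p = 0.049), and 2 of 5 red cell markers were lower, Hba-a2 at -1.13 (adjusted p = 0.0142) and Hba-a1 at -0.98 (adjusted p = 0.0222). The part of any of these cell types in the result was not tested.

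Between the defeated groups at day 21, no member passed, where 3.09% of all genes did, and DESeq2 counted 0. At an unadjusted p under 0.05, edgeR counted 4 of 37 members and 3661 of all 23778 genes. In defeated adolescents, edgeR counted 8 of 37 members and 2690 of all genes between day 21 and day 1 at an unadjusted p under 0.05. No member passed there, where 0.622% of all genes did, and DESeq2 counted 2, mt-Rnr1 and mt-Td. Without library 4 of defeated adolescents at day 1, edgeR counted 1. mt-Rnr1 had 1799, 1952, 2258 and 2335 CPM at day 21, against 1472, 1359.6, 1592 and 1872 CPM at day 1, in defeated adolescents, with a log2 change of 0.41 ± 0.11 (SE, edgeR, adjusted p = 0.0721). Rn18s-rs5 had 1682, 1999, 1742 and 2913 CPM at day 21 in these mice, against 919, 1036, 815 and 825 CPM at day 1. Choroid plexus markers summed to 171 to 1198 CPM at day 21 and 1548 to 2092 CPM at day 1. The oligodendrocyte marker Cldn11 was lower at day 21, at a log2 change of -0.82 (edgeR adjusted p = 0.0247). Their part in the change of mt-Rnr1 was not tested. In defeated adults, 0.606% of all genes passed and 1 of 37 members did, mt-Rnr1, which was higher at day 21. It had 2954, 2563, 2509.5 and 2216 CPM at day 21, against 2069.6, 1789, 1757 and 1922 CPM at day 1, in defeated adults. The groups did not overlap, with a log2 change of 0.44 ± 0.11 (SE, edgeR, adjusted p = 0.048). Rn18s-rs5 had 8396, 8851, 979.8 and 657 CPM at day 21, against 777, 609.7, 508 and 1134 CPM at day 1, in the same groups, and with its log2 level as a covariate the change of mt-Rnr1 was 0.28 (adjusted p = 0.272), so that call was lost. At an unadjusted p under 0.05, edgeR counted 22 of 37 members between days in defeated adults, beside 3283 of all 23778 genes. DESeq2 counted 11 members at its adjusted threshold. Of the 37, 34 were above 0, with a median log2 change of 0.28 beside -0.0029 over all genes. The call of mt-Rnr1 was also lost without any 1 of the 4 libraries of day 1 or any 1 of libraries 1, 2 and 3 of day 21, so the count of 1 became 0, and it became 3 without library 4 of day 21. No cell type marker passed in this comparison, but all 12 choroid plexus markers were below 0 (median log2 change -3.86) and so were all 8 oligodendrocyte markers (median -0.55); their part in the result was not tested.

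The balance of rRNA to mRNA within the mitochondrial counts differed between the age classes among defeated mice, and by a like amount among controls at day 1. At day 1 the log2 ratio of rRNA to mRNA counts was -3.51, -3.52, -3.61 and -3.56 in defeated adults, against -3.99, -4.14, -4.01 and -3.80 in defeated adolescents. The groups did not overlap, and the difference was 0.44 (two-sided exact permutation test, p = 0.0286, adjusted p = 0.0381 over 4 comparisons). At day 21 it was -3.32 ± 0.12 in defeated adults and -3.70 ± 0.14 in defeated adolescents (SD, n = 4 each), a difference of 0.38 (exact permutation p = 0.0286, adjusted p = 0.0381). Between day 21 and day 1 in defeated adults the difference was 0.23 (exact permutation p = 0.0286, adjusted p = 0.0381). Among controls at day 1, it was -3.42, -3.47, -3.73 and -3.45 in adults, against -3.95, -3.97, -4.02 and -3.96 in adolescents, also without overlap, with a difference of 0.46 (exact permutation p = 0.0286, adjusted p = 0.171 over 12 comparisons). Day 21 minus day 1 in adolescent controls also differed without overlap, by 0.46 (exact permutation p = 0.0286, adjusted p = 0.171). These control differences share the exact permutation p of 0.0286, the smallest possible, with the differences between defeated groups. Their adjusted p-values differ through the families of 12 and of 4 comparisons, so the calls do not tie the ratio to defeat. Adult minus adolescent controls at day 21 gave 0.12, with overlap (exact permutation p = 0.457, adjusted p = 0.61). Without the libraries of high Rn18s-rs5, the 3 differences between defeated groups were 0.44, 0.34 and 0.13, each with an exact permutation adjusted p of 0.1; fewer libraries also raise the smallest p that this test can give. Leaving out any 1 library of defeated adults at day 1 raised the adjusted p of the day 1 difference to 0.0571, with differences of 0.42 to 0.46. Leaving out library 1, 2 or 3 of defeated adults at day 21 did the same for the day 21 difference, at 0.33 to 0.40, and leaving out any of these 7 libraries did so for the difference between days, at 0.18 to 0.25. In none of the 4 defeat comparisons did the ratio pass the test. The difference was -0.030 in adults at day 1 (exact permutation p = 0.743, adjusted p = 0.887) and -0.0060 in adolescents at day 1 (exact permutation p = 0.914, adjusted p = 0.914). At day 21 it was 0.076 in adults (exact permutation p = 0.343, adjusted p = 0.557) and -0.18 in adolescents (exact permutation p = 0.286, adjusted p = 0.557).

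A pair and a run of neighbouring tRNAs were high together in single libraries. mt-Tm had 17.4, 17.4, 29.7 and 35.7 CPM in defeated adults at day 1, against 14.04, 16.2, 40.5 and 19.9 CPM in adult controls of that day, where 1 control and 2 defeated libraries stood out. mt-Tq, its neighbour on the opposite strand, had 6.60, 6.99, 11.5 and 13.9 CPM in defeated adults at day 1, against 5.82, 6.74, 14.8 and 7.92 CPM in adult controls. The same libraries were high for both genes. In 7 of 32 libraries, spread over 5 groups, mt-Tm was 27.6 to 40.5 CPM, and in the other 25 it was 14.04 to 21.7 CPM. mt-Tq was 9.80 to 14.8 CPM in those 7 libraries and 5.82 to 9.26 CPM in the other 25. The run mt-Th, mt-Ts2 and mt-Tl2 was highest in library 4 of defeated adults at day 21. mt-Th had 1.32, 1.20, 0.685 and 3.27 CPM in defeated adults at day 21, against 0.983, 0.978, 1.15 and 0.854 CPM in adult controls. mt-Ts2 had 0.909, 0.938, 0.529 and 2.11 CPM in those defeated adults, against 0.572, 0.672, 0.751 and 0.648 CPM in adult controls, and mt-Tl2 had 1.53, 1.86, 1.15 and 3.36 CPM in defeated adults, against 1.25, 1.07, 1.46 and 1.62 CPM in adult controls. These 5 genes passed no comparison.

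**Figure D5:**
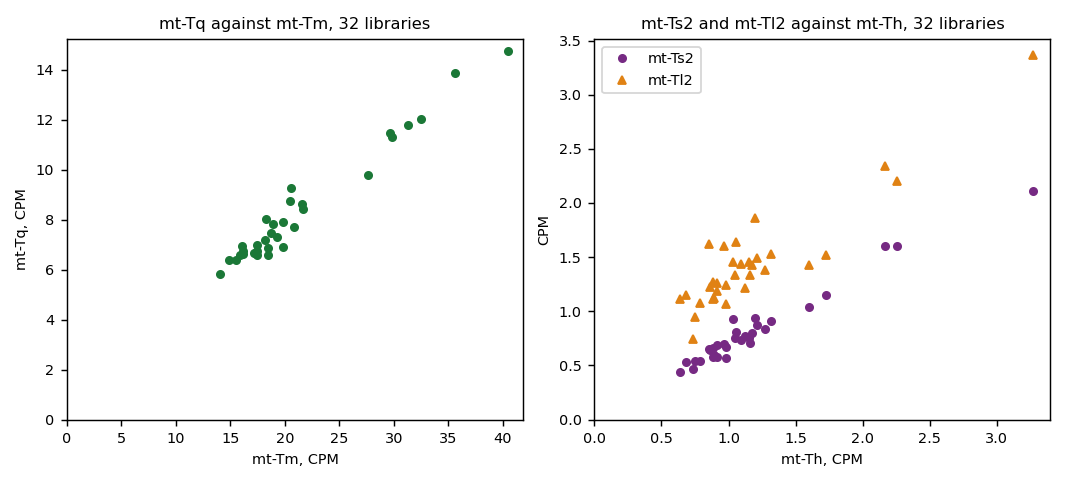
CPM of neighbouring tRNAs in each of the 32 libraries (all axes from 0): left, mt-Tq against mt-Tm; right, mt-Ts2 and mt-Tl2 against mt-Th. In 7 libraries mt-Tm is 27.6 CPM or more and mt-Tq is high with it, and 1 library stands at 3.27 CPM of mt-Th.

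The nuclear genes that transcribe and process these RNAs were described from a list of 43, all of which were tested. None passed in any of the 4 defeat comparisons by edgeR or DESeq2, and edgeR counted 0 to 6 of them at an unadjusted p under 0.05. Of all 23778 genes, edgeR counted 1361 to 2261 at that level in these comparisons. Polrmt, the mitochondrial RNA polymerase, averaged 38.8 ± 0.780 CPM in defeated adults at day 1 and 37.2 ± 2.50 CPM in adult controls (SD, n = 4 each, log2 change 0.060 ± 0.050, edgeR adjusted p = 0.789). Tfam, which packages mitochondrial DNA and starts transcription, averaged 26.3 ± 1.27 CPM in defeated adults at day 1 and 28.8 ± 1.51 CPM in adult controls (SD, n = 4 each, log2 change -0.13 ± 0.063, edgeR adjusted p = 0.501). Lrpprc, which binds and stabilises the mRNAs, averaged 75.5 ± 4.08 CPM in defeated adults at day 1 and 76.6 ± 4.28 CPM in adult controls (SD, n = 4 each, log2 change -0.021 ± 0.049, edgeR adjusted p = 0.954). None of these 3 passed in any of the 16 comparisons. Between adult and adolescent controls at day 1, 1 of the 43 was higher, no larger a share than the 4.38% of all genes that passed there. It was Fastkd2, an RNA-binding protein of mitochondria, at 20.8 ± 1.40 CPM in adult controls and 17.7 ± 1.37 CPM in adolescent controls (SD, n = 4 each, log2 change 0.24 ± 0.069, edgeR adjusted p = 0.0409). At day 21 the list had 1 gene higher and 2 lower in adult controls, and 3 of 43 is near the 6.06% of all genes that passed there. Mrm3, which methylates the large-subunit rRNA, was higher, at 10.6 ± 0.335 CPM in adult controls and 8.04 ± 0.783 CPM in adolescent controls (SD, n = 4 each, log2 change 0.40 ± 0.091, edgeR adjusted p = 0.00663). Prorp, the nuclease subunit of mitochondrial RNase P, was lower, at 5.58 ± 0.619 CPM in adult controls and 7.94 ± 0.408 CPM in adolescent controls (SD, n = 4 each, log2 change -0.51 ± 0.11, edgeR adjusted p = 0.00482). Angel2, also lower, averaged 51.5 ± 2.10 CPM in adult controls and 57.9 ± 1.97 CPM in adolescent controls (SD, n = 4 each, log2 change -0.17 ± 0.042, edgeR adjusted p = 0.0112). After defeat at day 1, 2 of the 43 passed, where 7.32% of all genes did. Angel2 was lower in adults than in adolescents, at 49.5 ± 1.78 CPM in defeated adults and 56.1 ± 1.80 CPM in defeated adolescents (SD, n = 4 each, log2 change -0.18 ± 0.042, edgeR adjusted p = 0.00615). Fastkd5, which is needed for processing of some mRNAs, was higher, at 9.90 ± 0.617 CPM in defeated adults and 7.11 ± 1.12 CPM in defeated adolescents (SD, n = 4 each, log2 change 0.48 ± 0.13, edgeR adjusted p = 0.0247).

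Among 14 regulators of mitochondrial biogenesis, 1 was higher after defeat, Pprc1, a coactivator related to Ppargc1a, in adults at day 1. Of all genes, 0.353% passed there. The share was 0.622% for the change of the defeat effect between days in adults. Between adults and adolescents it was 4.38% and 6.06% among controls at day 1 and day 21, and 7.32% after defeat at day 1. Between days it was 0.622% in defeated adolescents and 0.606% in defeated adults. Pprc1 averaged 31.7 ± 2.15 CPM in defeated adults and 23.1 ± 3.60 CPM in adult controls (SD, n = 4 each). Its log2 change was 0.46 ± 0.077 (SE, edgeR, adjusted p = 0.00369). Its defeat effect in adults was lower at day 21 than at day 1 (log2 difference -0.60 ± 0.11 SE, edgeR adjusted p = 0.00522). Ppargc1a itself averaged 32.9 ± 2.04 CPM in defeated adults at day 1 and 30.9 ± 1.02 CPM in adult controls (SD, n = 4 each, log2 change 0.089 ± 0.066, edgeR adjusted p = 0.747), and it passed in none of the 16 comparisons. Pprc1 was higher in adults than in adolescents among controls at day 21, at 28.2 ± 1.42 CPM in adult controls and 23.4 ± 0.571 CPM in adolescent controls (SD, n = 4 each, log2 change 0.27 ± 0.077, edgeR adjusted p = 0.0326). It was also higher in adults after defeat at day 1, at 31.7 ± 2.15 CPM in defeated adults and 24.9 ± 1.66 CPM in defeated adolescents (SD, n = 4 each, log2 change 0.35 ± 0.076, edgeR adjusted p = 0.00413). Gabpa, a subunit of a transcription factor of nuclear respiratory genes, was higher in adults than in adolescents among controls at day 1, at 32.8 ± 1.62 CPM in adult controls and 25.9 ± 0.353 CPM in adolescent controls (SD, n = 4 each, log2 change 0.34 ± 0.060, edgeR adjusted p = 0.000707). It was also higher after defeat at day 1, at 31.8 ± 1.702 CPM in defeated adults and 26.5 ± 3.22 CPM in defeated adolescents (SD, n = 4 each, log2 change 0.26 ± 0.060, edgeR adjusted p = 0.00714). Between days, Gabpb1, another subunit of that factor, was higher at day 21 in defeated adolescents, at 21.3 ± 2.90 CPM in defeated adolescents at day 21 and 17.2 ± 0.918 CPM in those at day 1 (SD, n = 4 each, log2 change 0.31 ± 0.074, edgeR adjusted p = 0.0459), and Pprc1 was lower at day 21 in defeated adults, at 25.5 ± 1.55 CPM in defeated adults at day 21 and 31.7 ± 2.15 CPM in those at day 1 (SD, n = 4 each, log2 change -0.31 ± 0.077, edgeR adjusted p = 0.0499).

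The nuclear-encoded subunits of the respiratory chain and ATP synthase were set beside the mitochondrial ones. They were 75 genes, all tested, listed under 90 symbols because the ATP synthase genes were given under old and new ones. None of the 75 passed after defeat in either age class at either day by edgeR. At an unadjusted p under 0.05, edgeR counted 3 adult and 36 adolescent changes at day 1, and 1 adult and 2 adolescent changes at day 21. Over all 23778 genes these counts were 2261 and 1772 at day 1, and 1537 and 1361 at day 21. DESeq2 counted 2 at its adjusted threshold for adolescent defeat at day 1 and 0 in the other 3 comparisons. For adolescent defeat at day 1, 69 of 75 had fitted changes above 0 and the median log2 change was 0.12, beside 0.089 for the 13 mitochondrial mRNAs, all of them above 0, and -0.0031 for all genes. In adults at day 1, 23 of 75 were above 0 with a median of -0.025, beside -0.14 for the mitochondrial mRNAs, none of them above 0. After defeat at day 1, adults were lower than adolescents for 19 of 75 genes and higher for 0, with a median of -0.14. Of all genes, 7.32% passed there in either direction. Ndufa4, a subunit associated with cytochrome c oxidase, averaged 77.5 ± 1.24 CPM in defeated adults and 91.2 ± 5.61 CPM in defeated adolescents (SD, n = 4 each, log2 change -0.23 ± 0.049, edgeR adjusted p = 0.00247). Ndufb6, a subunit of complex I, averaged 19.0 ± 1.27 CPM in defeated adults and 23.5 ± 1.91 CPM in defeated adolescents (SD, n = 4 each, log2 change -0.31 ± 0.066, edgeR adjusted p = 0.00336). Ndufv3, also of complex I, averaged 27.2 ± 1.42 CPM in defeated adults and 32.7 ± 0.579 CPM in defeated adolescents (SD, n = 4 each, log2 change -0.27 ± 0.058, edgeR adjusted p = 0.00414). Ndufa7, of the same complex, averaged 28.9 ± 2.38 CPM in defeated adults and 36.6 ± 1.40 CPM in defeated adolescents (SD, n = 4 each, log2 change -0.34 ± 0.078, edgeR adjusted p = 0.0059). In other comparisons single genes of the list passed, where 6.06% of all genes did among controls at day 21. The share of all genes was 3.09% after defeat at day 21 and 0.606% between days in defeated adults. Ndufv3 was also lower in adults among controls at day 21, at 28.3 ± 2.33 CPM in adult controls and 32.5 ± 0.875 CPM in adolescent controls (SD, n = 4 each, log2 change -0.20 ± 0.058, edgeR adjusted p = 0.0376). Ndufb2, a subunit of complex I, was higher in adults after defeat at day 21, at 36.1 ± 0.977 CPM in defeated adults and 30.8 ± 1.58 CPM in defeated adolescents (SD, n = 4 each, log2 change 0.23 ± 0.064, edgeR adjusted p = 0.0398). Ndufab1, the mitochondrial acyl carrier protein, was higher at day 21 in defeated adults, at 54.5 ± 1.71 CPM in defeated adults at day 21 and 46.5 ± 1.11 CPM in those at day 1 (SD, n = 4 each, log2 change 0.23 ± 0.047, edgeR adjusted p = 0.0237).

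The mitochondrial tRNA synthetase list had 25 symbols, with Gars and Kars under old and new ones, and all 23 genes were tested. It also holds Gatb, Gatc, Qrsl1 and Mtfmt, which are not synthetases. After defeat 0 passed by edgeR or DESeq2, with 0 to 2 at an unadjusted p under 0.05. Of all 23778 genes, edgeR counted 1361 to 2261 at that level. Between defeated age classes, 7.32% of all genes passed at day 1 and 3.09% at day 21, and the list's share was near each. Adults were higher than adolescents after defeat at day 1 for Ears2, which charges mt-Te. Ears2 averaged 9.23 ± 0.676 CPM in defeated adults and 7.15 ± 0.232 CPM in defeated adolescents (SD, n = 4 each). Its log2 change was 0.37 ± 0.095 (SE, edgeR, adjusted p = 0.0142). Rars2, which charges the arginine tRNA, was lower in that comparison, at 15.8 ± 1.48 CPM in defeated adults and 18.4 ± 0.913 CPM in defeated adolescents (SD, n = 4 each, log2 change -0.22 ± 0.067, edgeR adjusted p = 0.041). Sars2, the mitochondrial seryl synthetase, was lower in adults after defeat at day 21, at 9.76 ± 1.04 CPM in defeated adults and 12.9 ± 0.922 CPM in defeated adolescents (SD, n = 4 each, log2 change -0.40 ± 0.10, edgeR adjusted p = 0.0261). Among 23 genes that maintain mitochondrial DNA, 0 passed after defeat by edgeR or DESeq2. Between 1 and 5 had an unadjusted p under 0.05, beside the same counts of all genes. Single genes passed between age classes, where 4.38% of all genes did among controls at day 1 and 6.06% at day 21. After defeat at day 1, 7.32% did, so the list's share was no larger than that of all genes. Mpv17, an inner membrane protein needed to keep mitochondrial DNA in mouse liver, was higher in adults among controls at day 1, at 42.1 ± 1.995 CPM in adult controls and 36.8 ± 1.60 CPM in adolescent controls (SD, n = 4 each, log2 change 0.19 ± 0.052, edgeR adjusted p = 0.0308). Tk2, the thymidine kinase of mitochondria, was lower in adults among controls at day 21, at 37.2 ± 1.20 CPM in adult controls and 42.1 ± 2.14 CPM in adolescent controls (SD, n = 4 each, log2 change -0.18 ± 0.055, edgeR adjusted p = 0.0486). Slc25a4, the ADP and ATP carrier, was lower in adults after defeat at day 1, at 423 ± 12.2 CPM in defeated adults and 463 ± 14.01 CPM in defeated adolescents (SD, n = 4 each, log2 change -0.13 ± 0.040, edgeR adjusted p = 0.0473).

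The genes whose levels followed the summed mitochondrial mRNAs most closely over the 32 libraries were ranked by Spearman correlation of log2 CPM, among 10548 genes outside the members with a mean of at least 10 CPM. Of the 7 chromosome 1 copies, 6 held ranks 1 to 6, with rho of 0.974 for Gm28661, 0.964 for Gm28437, 0.959 for Atp6-ps and 0.940 for Gm28439. The other, Gm28438 (rho = 0.831), ranked 9, below Epas1 and Grin2c. The 5 genes of highest rho outside the copies were Epas1, a hypoxia-inducible transcription factor (rho = 0.847), Grin2c, an NMDA receptor subunit (rho = 0.839), Acsbg1, an acyl-CoA synthetase (rho = 0.795), Camk2n1, an inhibitor of the kinase CaMKII (rho = 0.795), and Cst3, a secreted protease inhibitor (rho = 0.779). The points share their libraries and groups, and these genes were picked as the highest of many, so the values are a description.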

How the data were processed

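Total RNA of mouse brain tissue was selected with oligo(dT) beads and sequenced in 32 libraries. The authors deposited raw read counts per gene and, beside them, FPKM values (scaled for gene length and library size) for 40392 genes. Per the submitters' processing notes, cutadapt 1.9, HISAT2 2.0.4, StringTie 1.3.4d and edgeR were used; those notes name the human build hg38, although the identifiers are those of mouse genes. The sources used here do not give how strand and multiply mapping reads were treated.

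Counts of 23778 genes kept by filterByExpr (99.975% of all counts) were scaled by TMM and tested with edgeR 4.0.16 (quasi-likelihood, 8 group means, 24 residual degrees of freedom, biological coefficient of variation 0.1852, R 4.3.3), with Benjamini-Hochberg adjustment over all genes within a comparison and a threshold of 0.05. CPM are counts relative to the TMM-scaled library size. Class shares are percents of all counts of a library. They and the 2 log2 ratios were tested over libraries by two-sided exact permutation (SciPy 1.17.1), adjusted over 12 comparisons, or over the 4 that were added after values had been seen. Correlations used 100000 permutations. Alternatives were DESeq2 1.42.0, limma 3.58.1 on log2(FPKM + 0.1) and log2(FPKM + 1), other scalings, no filter, fits of only the groups compared, a replicate block and leaving out each library; the limits of 2000 CPM of Rn18s-rs5 and 100 CPM of Ttr and the covariate were chosen after seeing the data. Nuclear copies were searched for among annotated transcripts only, with BLAST 2.17.0 at an identity of 95% or more over 60 bases or more. The edgeR test and the exact permutation test between groups were checked on simulated data for a single comparison. The permutation test of differences of effects was not checked in this way.

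Named were mt-Co1, mt-Nd1, mt-Cytb, mt-Atp6, mt-Nd6, both rRNAs, the 3 tRNAs of highest summed count, every member that passed, up to 4 passing genes of a nuclear list per comparison by adjusted p, and Polrmt, Tfam, Lrpprc and Ppargc1a; other members named for their spread, order or copies were chosen after their values were seen. The members and lists were chosen with earlier results of these data known.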

Additional observations from a re-analysis of the deposited data

Results flagged for a closer look

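Values of 200 groups of 4 libraries (genes and shares by group) were examined by Dixon's 95% critical ratio. It marks a library far from the other 3, and 11 were marked. Chance marks about 1 in 20 independent groups. The number marked cannot be set against that rate, because the genes share their libraries and the neighbouring tRNAs were included after their values were seen. Of the 11 marked, 7 were tRNAs of the neighbour sets described above. mt-Tm had 31.3 CPM in library 4 of adolescent controls at day 21, against 17.5 to 19.0 CPM in the other 3 libraries, and 32.5 CPM in library 2 of defeated adolescents at day 1, against 15.9 to 18.3 CPM in the other 3. mt-Th had 2.26 CPM in library 3 of defeated adolescents at day 1 (others 1.03 to 1.17 CPM), 2.17 CPM in library 1 of adolescent controls at day 1 (others 0.732 to 0.895 CPM) and 1.28 CPM in library 3 of adolescent controls at day 21 (others 0.886 to 0.917 CPM). mt-Tl2 had 2.21 CPM in that same library of defeated adolescents (others 1.33 to 1.46 CPM), and mt-Ts2 had 1.61 CPM in that same library of adolescent controls at day 1 (others 0.463 to 0.592 CPM).

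mt-Cytb had 9063.5 CPM in library 1 of defeated adults at day 21, against 6954 to 7233 CPM in the other 3. mt-Tl1 had 34.2 CPM in library 3 of adult controls at day 21, against 27.1 to 27.6 CPM in the other 3. mt-Ty had 7.40 CPM in library 4 of adolescent controls at day 21, against 8.77 to 8.89 CPM in the other 3. The log2 ratio of rRNA to mRNA counts was -3.73 in library 3 of adult controls at day 1, against -3.47 to -3.42 in the other 3.

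The effect of defeat differed between groups of mice in 3 values. The log2 ratio of mt-Nd6 to the other mRNAs gave a difference of effects of -0.27 between adults and adolescents at day 1 and of 0.27 between day 21 and day 1 in adults (exact permutation, adjusted p = 0.00735 for each). For Pprc1 the difference between day 21 and day 1 in adults was -0.60 on the log2 scale (edgeR adjusted p = 0.00522).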

How the results depend on the processing

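Counts of members called by edgeR were within 1.5 times the reported count in 157 of 187 results under other settings. With 1 library left out they were so in 131 of 160. Both figures include comparisons in which 0 were called and stayed at 0. Of 8 settings with 1 library left out, the count moved further in 4 for adult minus adolescent controls at day 1 and in 8 at day 21. It did so in 7 of 8 for adult minus adolescent defeated mice at day 1. For days it did so in 8 of 8 in defeated adults and 0 of 8 in adolescent controls. Of the values of the named members, 133 of 166 kept their direction and side of the threshold under other settings and 33 kept their direction only; with 1 library left out these were 58 and 54 of 112. Shares and ratios kept both in 317 of 343 results under other settings and in 743 of 800 with 1 library left out. Unless a cause is stated, the cause of a change was not tested. Several tRNAs have few counts, which limits the precision of their values.

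For adult minus adolescent controls at day 1 (5 members called), 1 was called without libraries of high Ttr, 1 in a fit of only the groups compared, 8 by DESeq2, 9 by limma with a pseudocount of 0.1 and 9 with 1. At day 21 (3 called), 1 was called with upper-quartile scaling, 1 without a filter, 1 in a fit of only the groups compared, and 0 without libraries of high 18S or of high Ttr. For day 21 minus day 1 in adolescent controls (3 called), DESeq2 called 7 and limma 7 and 8. For adult minus adolescent defeated mice at day 1 (2 called), 1 was called without a filter, 6 in a fit of only the groups compared and 4 by DESeq2. For day 21 minus day 1 in defeated adults (1 called), 2 were called with upper-quartile scaling, 0 without a filter, 0 with the 18S covariate, 0 without libraries of high 18S or of high Ttr, 11 by DESeq2 and 5 by limma with either pseudocount. Where 0 were called by edgeR, DESeq2 called 1 for adult defeat at day 1, 1 for the change of the defeat effect between days in adults and 2 for days in defeated adolescents, where limma called 3 with either pseudocount.

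Replicate numbers did not pair the samples: correlations of same-numbered libraries' deviations ran from -0.302 to 0.176, and no comparison had all 4 above 0.1. With the replicate block, 2 members were called between days in defeated adults. The sign-flip test of the block cannot go below 0.125, so the rRNA to mRNA ratios of 0.44, 0.38 and 0.23 between defeated groups had an adjusted p of 0.125, and the mt-Nd6 differences of -0.27 and 0.27 one of 0.188.

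Without libraries of high 18S, the rRNA to mRNA ratios were 0.44, 0.34 and 0.13 (adjusted p = 0.1). Without libraries of high Ttr, they were 0.33 at day 21 (adjusted p = 0.0571) and 0.21 between days in defeated adults (adjusted p = 0.133), and the mt-Nd6 difference in adults was 0.25 (adjusted p = 0.0771); these fits have fewer libraries. Differences that changed sign, none of which had passed, were the following, in percentage points. Without libraries of high 18S, the mRNA share was -0.31 for adolescent defeat at day 21 and -0.18 for the change of the defeat effect between days in adults; the rRNA share was -0.015 for adult defeat at day 21 and -0.0069 for that change; the tRNA share was -0.0013 for adolescent defeat at day 21, -0.0011 for adult minus adolescent controls at day 21 and 0.00069 for the defeat effect in adults minus adolescents at day 21. Without libraries of high Ttr, the mRNA share was 0.078 for adult defeat at day 21, 0.26 for adult minus adolescent controls at day 1 and -0.093 for days in adult controls; the rRNA share was -0.0078 for adult minus adolescent controls at day 21; the tRNA share was 0.00025 for adult defeat at day 21 and -0.0011 for days in adult controls; and the log2 rRNA to mRNA ratio was 0.019 for adult defeat at day 1. With sums of FPKM, the tRNA share was 0.0022 for adult minus adolescent defeated mice at day 21.

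For the 5 nuclear lists together, DESeq2 called 2 genes for adolescent defeat at day 1 (edgeR 0), 10 for adult minus adolescent controls at day 1 (edgeR 3), 1 for days in adolescent controls (edgeR 0), 2 for days in adult controls (edgeR 0), 1 for the defeat effect in adults minus adolescents at day 1 (edgeR 0), 3 for the change of the defeat effect between days in adults (edgeR 1), 5 for adult minus adolescent defeated mice at day 21 (edgeR 2), 3 for days in defeated adolescents (edgeR 1) and 4 for days in defeated adults (edgeR 2), where scaling without the mitochondrial genes gave 1.

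With 1 library left out at a time, members called ran from 2 to 7 for adult minus adolescent controls at day 1, 0 to 1 at day 21, 0 to 2 for adult minus adolescent defeated mice at day 1, 0 to 1 for days in defeated adolescents, 0 to 3 for days in defeated adults and 0 to 1 for the change of the defeat effect between days in adults. The mRNA share ran from -0.75 to 0.0044 for adult defeat at day 1, -0.36 to 0.078 at day 21, -0.11 to 0.23 for adolescent defeat at day 21, -0.43 to 0.32 for adult minus adolescent controls at day 1, -0.42 to 0.014 for the defeat effect in adults minus adolescents at day 21 and -0.13 to 0.62 for its change between days in adults. The rRNA share ran from -0.010 to 0.052 for adult defeat at day 21, -0.0012 to 0.038 for adolescent defeat at day 1 and -0.0038 to 0.054 for adult minus adolescent controls at day 21. The tRNA share ran from -0.0011 to 0.00033 for adult defeat at day 21, -0.00050 to 0.00064 for adolescent defeat at day 21, -0.00032 to 0.00085 for adult minus adolescent controls at day 21, -0.00092 to 0.00054 for defeated mice at day 21, -0.0011 to 0.00030 for the defeat effect in adults minus adolescents at day 21 and -0.00064 to 0.0028 for days in adult controls. The log2 rRNA to mRNA ratio ran from -0.10 to 0.0019 for adult defeat at day 1, -0.068 to 0.046 for adolescent defeat at day 1, -0.094 to 0.039 for the defeat effect in adults minus adolescents at day 1, 0.38 to 0.50 for adult minus adolescent defeated mice at day 1, 0.33 to 0.44 at day 21 and 0.18 to 0.27 for days in defeated adults. The log2 mt-Nd6 ratio ran from 0.058 to 0.087 for adult defeat at day 21, -0.19 to -0.14 for adult minus adolescent controls at day 21, 0.090 to 0.15 for the defeat effect in adults minus adolescents at day 21 and -0.16 to -0.093 for its change between days in adolescents; both mt-Nd6 differences that had passed kept their call, at -0.30 to -0.24 and 0.24 to 0.29.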
